A study of Mus musculus with 146 samples.

Results

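Among 146 cultures of mouse bone marrow-derived macrophages, the 36 libraries with the strongest and the 36 with the weakest transcript signal of granulocyte precursors were compared, and the other 74 libraries lay in between. The cultures were chosen by the measured expression of 6 genes, Mpo, Elane, Prtn3, Ctsg, S100a8 and S100a9. For each of them, log2(CPM + 1), where CPM is the count of a gene scaled to the library total, was taken from the raw counts and the mean of the sequencing plate was subtracted. The values were z-scored over the 146 libraries, and the average of the 6 z-scores is the score. Cultures are called rich or poor in granulocyte precursors as a name for this score, since no cells were counted in the data used here.

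All mice were outbred CFW mice (Crl:CFW(SW)-US_P08) of 16 weeks, 86 labelled female and 60 labelled male. Marrow was cultured over 5 days with L929-conditioned medium, a source of the macrophage growth factor CSF1, and no treatment is given in the labels for any culture. Rich, poor and intermediate cultures therefore share strain, age and protocol and differ by no labelled treatment. Polyadenylated RNA was sequenced in paired 100 bp reads, 6 libraries to a lane, on 7 plates. The labels do not state that every library came from a different mouse, so p-values measure the spread between these libraries.

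In marrow, granulocyte-monocyte progenitors give rise to neutrophils through promyelocytes, which fill their first, azurophil granules with myeloperoxidase (Mpo) and the serine proteases neutrophil elastase (Elane), proteinase 3 (Prtn3) and cathepsin G (Ctsg). Later stages fill secondary granules with proteins such as lactoferrin and lipocalin 2, and cells on the way to mature neutrophils accumulate the cytosolic calcium-binding pair S100a8 and S100a9. CSF1 instead drives marrow progenitors through Ly6C-positive monocytes to macrophages, the cells such cultures are grown for.

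The score ran from -2.43 in male culture 42 on plate 7 to 2.63 in male culture 36 on plate 4, with a median of -1.05 in the poor and 0.896 in the rich cultures. The limits fall in a continuum. The last culture counted as poor scored -0.611 and the next one outside -0.554, while the last counted as rich scored 0.541 and the next outside 0.520. Each of the 7 plates held cultures of both kinds, from 1 rich and 2 poor on plate 1, the smallest plate, to 7 rich and 10 poor on plate 4.

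**Figure D1:**
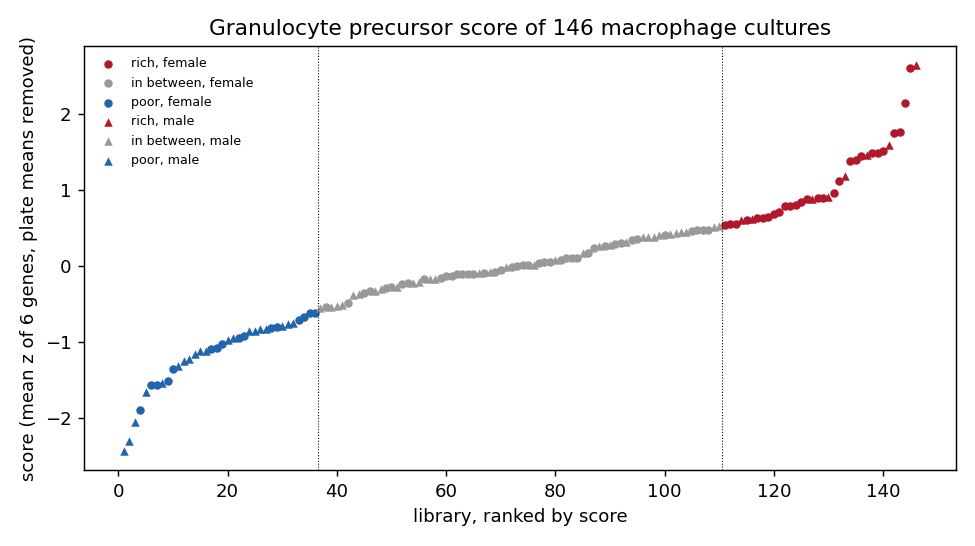
Score of each of the 146 libraries (y axis, mean z-score of the 6 genes with plate means removed) against its rank (x axis). Circles are libraries labelled female and triangles those labelled male, colours mark the 36 poor, 74 in-between and 36 rich cultures, and the dotted lines at the limits cross a continuous curve from -2.43 to 2.63.

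The values that made the ranking are given as a description, without a test. Elane stood at 39.6, 69.9 and 205 CPM (lowest, median and highest) in the rich and at 4.67, 17.1 and 29.6 CPM in the poor cultures. Prtn3 stood at 30.6, 57.7 and 184 against 3.76, 12.8 and 23.9 CPM. Ctsg stood at 30.0, 53 and 182 against 4.22, 13.5 and 28.2 CPM. For these 3 genes the groups did not overlap. Mpo, at 104, 240 and 785 CPM in rich and 28.2, 75.6 and 149 CPM in poor cultures, overlapped in 3 rich libraries. S100a8 (31.1, 65.9 and 264 against 8.47, 24.3 and 47.5 CPM) and S100a9 (24.3, 74.9 and 210 against 4.69, 28.7 and 55.5 CPM) overlapped in 11 rich libraries each. Summed over the 6 genes, the rich cultures ranged from 392 to 1657 CPM around a median of 516, the intermediate ones from 200 to 590 around 323, and the poor ones from 74.6 to 279 around 176.

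The 6 genes fell into an azurophil block and an S100 block. Over the 146 libraries with plate means subtracted, Pearson's r was 0.926 to 0.979 among Mpo, Elane, Prtn3 and Ctsg, 0.913 between S100a8 and S100a9, and 0.518 to 0.730 across the blocks. These libraries share plates and sampling dates, and the values are descriptive. A score from the 4 azurophil genes alone kept 31 of the 36 rich and 32 of the 36 poor cultures, and one from S100a8 and S100a9 alone kept 26 and 24. With these separate scores, 2 cultures were rich in the azurophil genes and poor in the S100 genes, and none was the reverse. The ratio of the summed azurophil to the summed S100 CPM ranged from 1.19 to 8.29 (median 3.19) in rich and from 0.903 to 9.64 (median 2.08) in poor cultures, so cultures of both kinds covered nearly the same span of this ratio.

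The promoters below show where 2 score genes and 3 genes outside the score sit in the genome and which myeloid motifs they carry. Elane and Prtn3 lie side by side on chromosome 10, 3072 bp apart. Ms4a3, Fcnb and Lcn2 are 3 of the genes that moved with the score in the comparison that follows, and do not represent all of them. Sequences are from RefSeq on GRCm38.p6, 250 bases before to 50 bases after the start of the gene, 5′ to 3′ on the strand of the gene, with capitals for 2 motifs searched on both strands: TTGCNNAA, a form of the C/EBP site, and GAGGAAGT, a form of the PU.1 site.
Elane (chr10:79886062-79886361, plus strand): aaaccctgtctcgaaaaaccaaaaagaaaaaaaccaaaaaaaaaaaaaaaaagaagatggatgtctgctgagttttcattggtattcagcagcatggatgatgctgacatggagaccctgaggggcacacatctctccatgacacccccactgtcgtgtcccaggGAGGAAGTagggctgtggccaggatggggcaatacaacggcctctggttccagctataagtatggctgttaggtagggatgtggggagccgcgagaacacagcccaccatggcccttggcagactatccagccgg
Prtn3 (chr10:79879417-79879716, plus strand): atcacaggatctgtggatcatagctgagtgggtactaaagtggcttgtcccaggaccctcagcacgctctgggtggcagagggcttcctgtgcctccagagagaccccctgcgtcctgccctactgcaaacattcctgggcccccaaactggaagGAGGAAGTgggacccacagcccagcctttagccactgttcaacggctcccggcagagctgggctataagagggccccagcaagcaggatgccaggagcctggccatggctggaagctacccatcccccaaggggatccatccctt
Ms4a3 (chr19:11640802-11641101, minus strand): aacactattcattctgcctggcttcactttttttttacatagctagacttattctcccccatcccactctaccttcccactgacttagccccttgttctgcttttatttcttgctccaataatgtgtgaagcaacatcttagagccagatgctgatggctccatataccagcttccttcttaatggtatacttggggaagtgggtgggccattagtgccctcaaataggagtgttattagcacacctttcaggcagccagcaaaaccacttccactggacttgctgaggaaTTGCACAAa
Fcnb (chr2:28084829-28085128, minus strand): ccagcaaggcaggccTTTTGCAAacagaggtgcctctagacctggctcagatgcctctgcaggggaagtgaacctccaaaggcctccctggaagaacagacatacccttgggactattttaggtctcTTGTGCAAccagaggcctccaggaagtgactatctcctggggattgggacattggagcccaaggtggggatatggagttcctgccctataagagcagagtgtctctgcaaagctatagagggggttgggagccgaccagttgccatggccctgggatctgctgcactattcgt
Lcn2 (chr2:32387690-32387989, minus strand): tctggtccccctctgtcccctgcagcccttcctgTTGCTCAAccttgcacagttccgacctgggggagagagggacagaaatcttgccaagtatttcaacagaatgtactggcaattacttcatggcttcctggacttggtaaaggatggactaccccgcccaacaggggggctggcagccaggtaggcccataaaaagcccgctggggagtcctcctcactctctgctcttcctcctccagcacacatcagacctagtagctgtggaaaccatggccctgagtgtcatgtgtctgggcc

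Both neighbouring proteases carried the PU.1-type word just upstream of their starts, with its first base at -85 in Elane and -95 in Prtn3. Among the other score genes, the Mpo and S100a8 promoters also held it, so that 4 of the 6 did, against 3.20% of all 32851 promoters of this length. These 6 genes define the ranking, so their share describes them only and says nothing about genes that moved with the score. The C/EBP-type word occurred once in Ms4a3 and Lcn2 and at 2 places in Fcnb, and in 10.8% of all promoters. Other genes that moved with the score were searched but are not printed. Plppr3, Ly6c2, Chil3, Ccr2, Vcan and Nkg7 held no C/EBP-type word, and 1 promoter of Plac8 held it while another did not. Each Ly6c2 promoter held the PU.1-type word at 2 places, and the others of these genes held none. Of the 511 promoters of genes called more than 2-fold higher in rich cultures (below, score genes left out), 76 (14.9%) held the C/EBP-type word and 21 (4.11%) the PU.1-type word, and of the 2901 promoters of genes called lower, 8.14% and 3.48% did. Among promoters of all tested genes the shares were 8.61% and 3.37%. Such matches describe the letters of these windows and are no evidence of binding.

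Before the comparison of other genes, 3 features of the libraries were examined. Totals ran from 14483441 to 120926429 counts in the rich and from 21342324 to 115110641 counts in the poor cultures, with a difference in mean log2 total of -0.11 (two-sided permutation test over 100000 resamples, p = 0.414). In 6 libraries, of which 3 were rich, 2 in between and 1 poor, the expression of sex-linked genes went against the labelled sex; results are given with them, and without them where stated. Collection dates were unevenly spread: 16 of 28 date labels held a rich culture, 21 held a poor one and 11 held both, so that 27 rich and 19 poor cultures could be set against each other within a date. Between-date differences within plates took up 39% of the variance of the score, against a mean of 26.8% when scores were permuted within plates (permutation test, one-sided, p = 0.0171). That test did not pass the threshold with the azurophil score alone (30.9%, p = 0.227), without plate 8 (38.9%, p = 0.0741) or without plate 10 (35.5%, p = 0.0657).

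Rich cultures came more often from mice labelled female. Of the 36 rich cultures 28 (77.8%) were labelled female, and of the 36 poor ones 16 (44.4%), a difference of 33.3 percentage points (Fisher's exact test, two-sided, p = 0.00731). Without the 6 libraries against their labels, 26 of 33 rich and 15 of 35 poor cultures were labelled female (Fisher's exact test, p = 0.00313). Over all 146 libraries the mean score was 0.164 in females and -0.235 in males, a difference of 0.399 that passed a two-sided permutation test within plates (p = 0.00842). Fisher's test used no covariate and the permutation test only plate. Libraries that share a collection date or lane were therefore counted as separate in these tests. On each of the 7 plates the female mean was above the male mean, by 0.0972 on plate 3 at the least.

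The other genes were measured in the same libraries that gave the score, so a difference between rich and poor cultures states which transcripts varied together with the 6 score genes. In bulk RNA, fewer cells of a type and less RNA per cell cannot be told apart. With plate as covariate, 5901 of 12994 genes outside the score (45.4%) passed an adjusted p of 0.05 (edgeR's quasi-likelihood test, Benjamini-Hochberg over all genes tested), 2956 (22.7%) higher in rich and 2945 (22.7%) higher in poor cultures. The counts of the 2 directions lay close together with the TMM scaling used here, and with RLE factors 3095 genes were higher and 2753 lower. Their sizes were unequal: 565 of the genes higher in rich cultures differed more than 2-fold and 106 more than 4-fold, against 21 and 2 of those higher in poor cultures. The median size over all called genes was 0.19 on the log2 scale. With date of collection as covariate and plate left out, 45 residual degrees of freedom remained where plate left 64. There, 1254 genes were called higher and 1087 lower. With lane within plate the counts were 1038 and 777. Of the 5901 genes, 5868 kept their direction with date and 5826 with lane, and 2220 and 1710 were called in it. The genes were chosen by a fit on the same libraries, so the kept direction is no separate evidence.

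Hp, which encodes the hemoglobin-binding protein haptoglobin and is made by developing granulocytes, separated the groups best among the 20 genes with the largest called increase at a mean log2 CPM of at least 1. It stood at 9.61, 26.0 and 88.4 CPM (lowest, median, highest) in rich and at 2.45, 4.71 and 11.0 CPM in poor cultures. In 35 of 36 rich libraries it was above the highest poor one, and the fitted difference was 2.61 ± 0.14 (log2, SE; adjusted p = 9.47e-25, edgeR).

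Early granule genes outside the score moved with it. Of 14 tested members of this list, which holds genes of the promyelocyte stage, 12 were higher in rich cultures and none lower, beside 22.7% of all genes in each direction. The median log2 difference of the list was 1.16 against -0.0010 over all genes tested. Ms4a3, a membrane protein whose expression marks granulocyte-monocyte progenitors, was at 3.06, 9.76 and 40.3 CPM in rich and at 0.699, 2.15 and 7.54 CPM in poor cultures, with 24 of 36 rich libraries above every poor one and a difference of 2.30 ± 0.17 (adjusted p = 1.56e-18, edgeR). Fcnb, the neutrophil granule lectin ficolin B, was less abundant, at 0.221, 1.81 and 9.34 against 0.0559, 0.236 and 1.47 CPM, and differed by 2.93 ± 0.23 (adjusted p = 2.75e-17, edgeR). Cst7, an inhibitor of lysosomal proteases, differed by 1.28, Nkg7, a granule membrane protein, by 1.80, and Pglyrp1, a granule protein that binds bacterial peptidoglycan, by 1.78. The protease gene Prss57 differed by 1.82, but 35.6% of its 50-base words also occur in another gene, which makes its count uncertain. The 2 members that did not pass were Ctsc, the peptidase that activates the granule proteases, at a median of 374 CPM in rich and 381 CPM in poor cultures (log2 difference 0.09 ± 0.06), and the receptor Clec5a at 172 and 173 CPM (0.01 ± 0.05). Both were among the most abundant members, and the summed CPM of the list overlapped between rich cultures (840 to 1419) and poor ones (614 to 959).

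Genes of later granules and of mature neutrophils were also higher, although the mature neutrophil marker Ly6g was scarce. Among 17 tested genes 15 passed in this direction and none in the other, beside 22.7% of all genes in each. The median log2 difference was 1.31. The summed CPM of the list overlapped widely, at 901 to 2047 in rich (median 1427) and 626 to 1898 in poor cultures (median 936). Retnlg, a member of the list, differed by 1.31 and kept its call in 24 of 24 alternatives. Lcn2, the iron-chelator-binding lipocalin of secondary granules, stood at 4.52, 13.7 and 46.8 CPM in rich and at 0.447, 4.23 and 8.77 CPM in poor cultures, and 29 of 36 rich libraries lay above all poor ones (1.97 ± 0.15, adjusted p = 3.9e-17, edgeR). Ngp, the neutrophilic granule protein, had medians of 19.5 and 7.93 CPM and a difference of 1.43 ± 0.18, and Ltf, lactoferrin, medians of 6.11 and 3.02 CPM and a difference of 1.19 ± 0.24, a call that was lost among female libraries alone. The collagenase gene Mmp8 was much more abundant, at 202, 621 and 1074 CPM in rich and 152, 261 and 720 CPM in poor cultures, and its groups overlapped widely (1.05 ± 0.12). Camp, the cathelicidin of secondary granules, had medians of 1.08 and 0.673 CPM and a difference of 0.95 ± 0.26, a call that was lost with date or lane as covariate and among female libraries alone. The defining surface marker of mature mouse neutrophils, Ly6g, was too low to be tested, with a median of 0.0317 CPM and a highest value of 0.162 CPM in the rich cultures, and Cd177 did not pass the test (0.92 ± 0.61). Csf3r, the receptor for the neutrophil growth factor G-CSF, had medians of 37.3 and 21.5 CPM and differed by 0.80 ± 0.07 (adjusted p = 3.88e-14, edgeR).

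**Figure D2:**
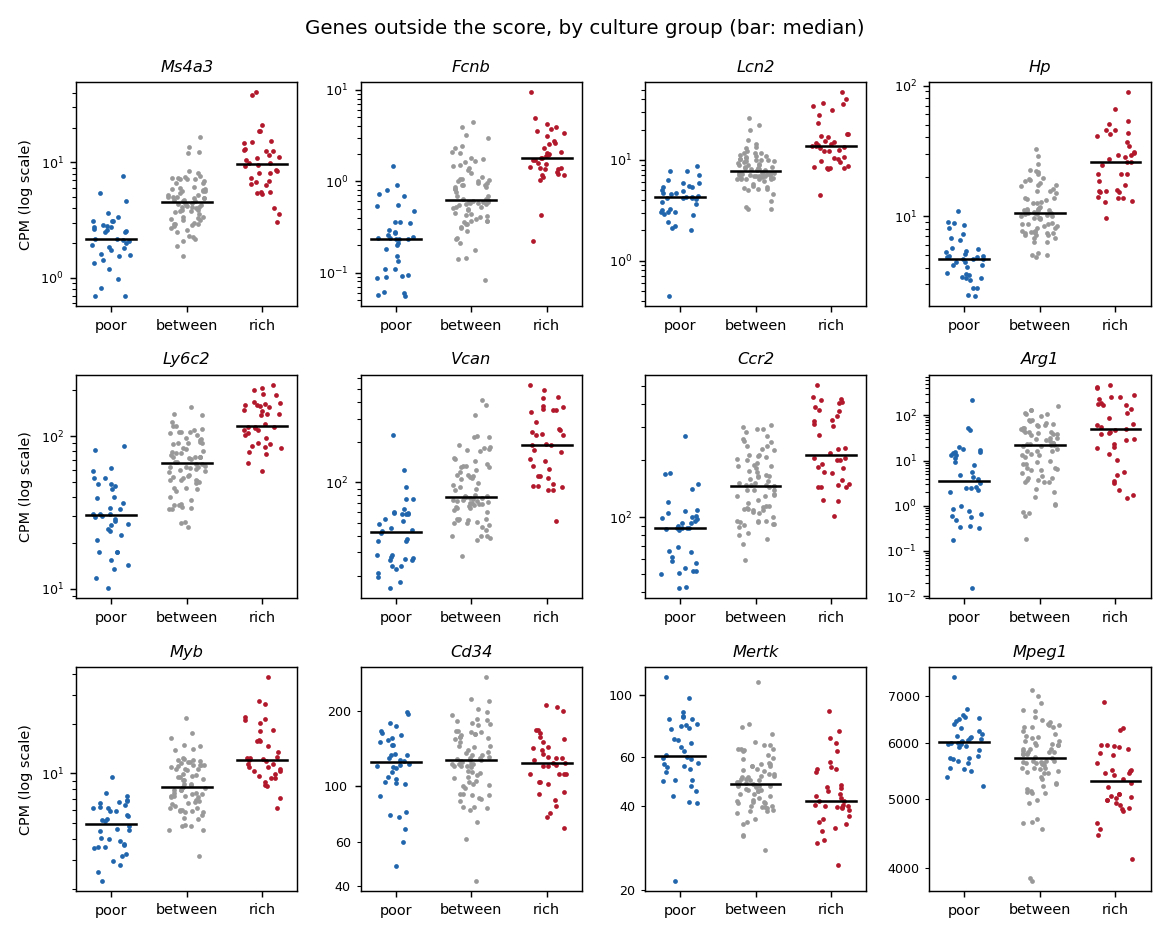
CPM (y axis, log scale) of 12 genes outside the score in poor, in-between and rich cultures (x axis), 1 point per library with a bar at the median. Granule, monocyte and progenitor genes step up from left to right, with Hp above 11.0 CPM in 35 of 36 rich libraries, Cd34 is level at medians of 124 CPM in both outer groups, and Mertk and Mpeg1 step down.

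Most monocyte genes were higher in the rich cultures, as were the granule genes. Of 14 tested, 11 were higher in rich and 1 lower, beside 22.7% of all genes in each direction, with a median log2 difference of 1.26. Ly6c2, the surface antigen by which classical monocytes are recognised, was at 59.1, 117 and 217 CPM in rich and at 10.1, 30.4 and 86.5 CPM in poor cultures (2.01 ± 0.12, adjusted p = 6.67e-22, edgeR), and in 29 rich libraries it exceeded the highest poor value. Vcan, the matrix proteoglycan versican, was at 51.1, 192 and 535 against 16.2, 42.8 and 226 CPM (2.34 ± 0.17), and 16 rich libraries lay above the poor range. Ccr2, the chemokine receptor with which monocytes leave the marrow, had medians of 213 and 87.5 CPM (1.54 ± 0.12), and Plac8 of 53.9 and 16.3 CPM (1.94 ± 0.13). The list also holds 3 genes known from non-classical monocytes. Of these, Cx3cr1 (-0.21 ± 0.12) and Nr4a1 (-0.11 ± 0.10) did not pass the test, although Cx3cr1 was called lower with 24 against 24 cultures (-0.34, adjusted p = 0.0441, edgeR). Treml4 was lower in the rich cultures at a median of 2.76 against 4.43 CPM (-0.62 ± 0.13, adjusted p = 6.68e-05, edgeR). Ly86 passed narrowly (0.22 ± 0.09, adjusted p = 0.0475, edgeR), and its call was kept in 8 of 24 alternatives.

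Progenitor genes divided into those that moved with the score and those that did not. Of 14 tested, 9 were higher in rich cultures and none lower, beside 22.7% of all genes in each direction, with a median of 1.19. Myb, the transcription factor that maintains immature blood cells, was at 6.20, 12.1 and 38.1 CPM in rich and at 2.24, 4.96 and 9.54 CPM in poor cultures (1.55 ± 0.11, adjusted p = 1.54e-19, edgeR), with 29 rich libraries above the poor range. Kit, the stem cell factor receptor, had medians of 2.46 and 1.02 CPM (1.46 ± 0.15), Flt3, a receptor of early progenitors, of 3.10 and 1.24 CPM (1.33 ± 0.22), and Hoxa9, a homeobox factor of myeloid progenitors, of 1.90 and 0.593 CPM (1.90 ± 0.20). Cd34, the surface antigen of hematopoietic progenitors, had medians of 124 CPM in both groups and a difference of 0.05 ± 0.09 that did not pass the test. Myc (0.09 ± 0.06) and Cdk6 (0.01 ± 0.05), which drive cell division, did not pass either.

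Of 19 tested transcription factors that direct the myeloid lineages, 11 were higher in rich cultures and 2 lower, beside 22.7% of all genes in each direction. Their median was 0.14. With date or lane as covariate 4 were called higher and 2 lower. Gfi1, the repressor required for granulocyte development, had medians of 0.850 and 0.292 CPM and differed by 1.79 ± 0.16 (adjusted p = 1.14e-14, edgeR), and Irf4 had medians of 8.31 and 2.91 CPM (1.61 ± 0.15). More abundant factors differed by smaller amounts: Spi1, which encodes PU.1, had medians of 236 and 219 CPM (0.12 ± 0.03), Irf8 of 114 and 101 CPM (0.23 ± 0.06), and Cebpa of 223 and 210 CPM, which did not pass the test (0.06 ± 0.06). The calls of Spi1 and Irf8 were lost with date or lane as covariate, that of Spi1 also with the S100 score and that of Irf8 also among female and among male libraries alone. Cebpe, the factor of the late granule programme, had medians of 2.09 and 1.66 CPM (0.37 ± 0.09), and its call was lost with date, with lane and among male libraries alone. The macrophage factor Maf was lower in rich cultures, at 283 against 348 CPM (-0.27 ± 0.06), a call that was lost among male libraries alone and with the S100 score.

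Of 13 tested receptors of growth factors, 8 were higher in rich and 2 lower, beside 22.7% of all genes in each direction, with a median of 0.30. Csf2rb, the common chain of the receptors for GM-CSF, IL-3 and IL-5, was at 360, 575 and 1275 CPM in rich and at 243, 348 and 942 CPM in poor cultures (0.75 ± 0.10, adjusted p = 2.33e-09, edgeR). Csf2ra, the chain specific to GM-CSF, had medians of 96.5 and 97.0 CPM and did not pass (-0.02 ± 0.05). Csf1r, the receptor for the growth factor of these cultures, was lower in the rich cultures by a small step, with medians of 1591 and 1773 CPM (-0.17 ± 0.03, adjusted p = 2.41e-07, edgeR), and 32 of 36 rich libraries lay below the poor median, within an overlapping range.

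More macrophage identity genes were lower than higher in rich cultures, by small amounts. Of 20 tested, 11 were lower, 1 was higher and 8 did not pass, beside 22.7% of all genes in each direction, and the median was -0.15. With date or lane as covariate, 5 and 4 of the 20 were called lower. Mertk, a receptor for the uptake of dying cells, was at 24.6, 41.7 and 87.6 CPM in rich and at 21.6, 60.6 and 116 CPM in poor cultures (-0.49 ± 0.09, adjusted p = 2.04e-05, edgeR), below the poor median in 31 of 36 rich libraries, a call that was lost with lane as covariate. Mpeg1, the pore-forming protein of macrophages, had medians of 5303 and 6018 CPM (-0.19 ± 0.03), and the scavenger receptor Cd36 of 235 and 315 CPM (-0.42 ± 0.10). The lysosomal glycoprotein gene Cd68 had medians of 1662 and 1789 CPM (-0.13 ± 0.03). The call of Cd36 was lost with date or lane as covariate and among male libraries alone, and that of Cd68 among female libraries alone. Mrc1 (-0.02 ± 0.16), Lgals3 (0.03 ± 0.04), Trem2 (0.04 ± 0.05), C1qb (-0.02 ± 0.10) and Lyz2 (-0.03 ± 0.08) did not pass the test. The member that was higher, Itgam, which encodes CD11b and is shared by monocytes, neutrophils and macrophages, had medians of 1184 and 817 CPM (0.50 ± 0.06), with 65.4% of its 50-base words shared with another gene and its count therefore uncertain. Summed over the list, macrophage identity genes took 24411 to 33427 CPM in rich and 25243 to 36269 CPM in poor cultures, ranges that overlapped over most of their width, and all 20 passed the filter on low counts.

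**Figure D3:**
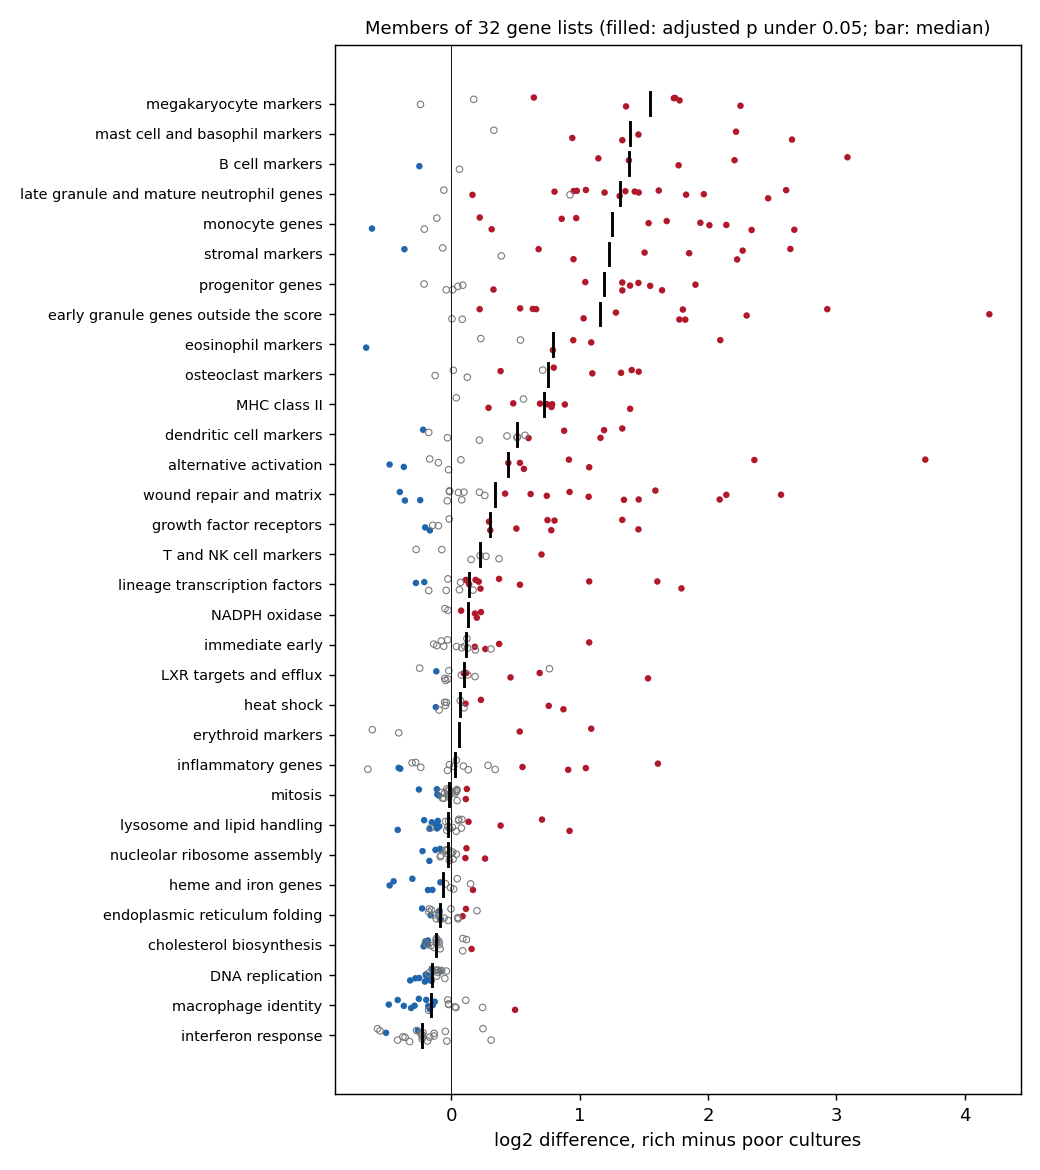
Log2 difference, rich minus poor (x axis), of the tested members of 32 gene lists (rows, ordered by the median, which is the bar). Filled points passed an adjusted p of 0.05, red where higher in rich and blue where lower, and open points did not; granule, monocyte, progenitor, stromal, B cell, mast cell and basophil, and megakaryocyte lists have medians of 1.16 to 1.55, while macrophage identity, DNA replication and interferon lists lie between -0.23 and -0.15.

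Other large differences were seen in genes of enzymes, matrix and receptors. Arg1, arginase, a marker of alternatively activated macrophages, had the second largest value of the 20 genes named for their size. It ranged from 1.47 to 469 CPM in rich (median 49) and from 0.015 to 217 CPM in poor cultures (median 3.53), a difference of 3.69 ± 0.47 (adjusted p = 2.87e-09, edgeR), and only 7 rich libraries were above the highest poor one, so that the ranges overlapped over most of their width. Thbs1, the matrix protein thrombospondin 1, was at 42.3, 102 and 558 against 5.24, 21.9 and 175 CPM (2.57 ± 0.23), and Fn1, fibronectin, at 60.1, 173 and 620 against 19.7, 47.3 and 193 CPM (2.14 ± 0.18). Chil3, the chitinase-like protein Ym1 of neutrophil precursors and alternatively activated macrophages, was at 14.4, 33.3 and 140 against 0.883, 8.21 and 20.4 CPM (2.36 ± 0.19), with 25.6% of its 50-base words shared with another gene and its count uncertain. The complement component C3 had medians of 41.5 and 11.0 CPM (2.06 ± 0.18), the leukotriene B4 receptor gene Ltb4r1 of 7.11 and 1.68 CPM (2.15 ± 0.15), and Cd38, an enzyme that degrades NAD, of 6.48 and 1.6 CPM (2.48 ± 0.28). Mefv, which encodes pyrin, had medians of 12.7 and 2.84 CPM (2.06 ± 0.19), and Rab44, a small GTPase of granulated cells, of 9.94 and 2.76 CPM (2.04 ± 0.12), with 33 rich libraries above the poor range. Others named by size were Cth, Plppr3, Muc13, Chil1 and Klrb1f, with differences of 2.07 to 2.43 and every rich library above the poor median.

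Mecom had the largest fitted difference of all 20 (3.91 ± 0.91, adjusted p = 0.000335, edgeR), and it rested on few cultures. Its median was 0.0530 CPM in rich and 0.0262 CPM in poor cultures, and 4 of 36 rich libraries stood above 100 CPM, up to 189 CPM. Over 10 CPM there were 6 rich, 3 intermediate and 1 poor libraries, on 6 plates and 9 collection dates, while 28 rich and 31 poor libraries were under 1 CPM. The call was lost with limma voom, with date or lane as covariate and among male libraries alone (0.32). Mecom encodes EVI1, a transcription factor of hematopoietic stem cells.

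Plppr3 lies beside the protease genes of the score, and its annotated span on the minus strand of chromosome 10 (79860475 to 79874634, GRCm38) overlaps the first 159 bases of the Prtn3 gene model of the same annotation, GENCODE M21. It was at 3.42, 9.88 and 26.2 CPM in rich and at 0.663, 1.89 and 5.32 CPM in poor cultures (2.37 ± 0.14, adjusted p = 2.95e-23, edgeR), with 32 rich libraries above the poor range. Whether the counting used strand is not given in the sources used here, so reads of the overlap cannot be assigned. The RefSeq start of Prtn3 used for the promoter above is a different one. Its window, 79879417 to 79879716, lies downstream of the overlap. Of 10 tested genes within 100000 bp of Elane outside the score, 5 were higher in rich cultures and 2 lower, beside 22.7% of all genes in each direction. Prss57 and Plppr3 differed by 1.82 and 2.37, and the other 8 by -0.18 to 0.42, so that the size of the difference was not shared by the neighbourhood. Cfd, the next gene downstream of Elane, was too low to be tested.

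Genes higher in the poor cultures showed smaller steps. Ch25h, the enzyme that makes 25-hydroxycholesterol, was at 1.04, 12.7 and 55.4 CPM in rich and at 1.59, 43.1 and 147 CPM in poor cultures (-1.50 ± 0.22, adjusted p = 6.11e-08, edgeR), and below the poor median in 34 of 36 rich libraries. The phosphatase-like gene Pald1 was at 6.08, 19.2 and 53.2 against 9.48, 45.9 and 95.3 CPM (-1.05 ± 0.14), with rich libraries below the poor median in 33 of 36. Cd300e, an activating receptor of myeloid cells, had medians of 26.7 and 42.8 CPM (-0.74 ± 0.11), and the chemokine gene Cxcl14 of 27.7 and 48 CPM (-0.76 ± 0.11). The zinc finger gene Sall2 differed by -0.75 ± 0.09, with 35 rich libraries below the poor median, and the potassium channel gene Kcnj10 by -0.98 ± 0.19, a call that was lost among female libraries alone. For Prrg4 (-0.85 ± 0.35, adjusted p = 0.0416, edgeR) the call was kept in 12 of 24 alternatives. In each of these genes the ranges of the groups overlapped.

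Several lists of macrophage function were also examined, with counts to be read against 22.7% of all genes called in each direction. MHC class II genes were higher in rich cultures, 8 of 10 with none lower and a median of 0.72: Cd74, the invariant chain, had medians of 157 and 99.5 CPM (0.75 ± 0.13), and Ciita, the master regulator of the class, of 5.39 and 3.27 CPM (0.89 ± 0.17, lost with lane as covariate). H2-Eb1, the beta chain of the E molecule, did not pass (0.56 ± 0.28). With lane as covariate 3 of the 10 were called. Of 13 alternative activation genes, among them Arg1 and Chil3, 7 were higher and 2 lower with a median of 0.45, and with date or lane 4 were higher. Of 22 wound repair and matrix genes, 11 were higher and 3 lower with a median of 0.34, and with date 7 were higher and 1 lower. Sdc1, syndecan 1, had medians of 47.3 and 13.9 CPM (1.59 ± 0.23), and Vegfa, the vascular growth factor, of 80.5 and 41.9 CPM (1.07 ± 0.22, lost with date or lane). The growth factor gene Igf1 was lower in rich cultures, with medians of 273 and 359 CPM (-0.40 ± 0.07, lost among male libraries alone). Of 10 osteoclast genes 6 were higher (3 with date, 4 with lane) and none lower, including Itgb3, the integrin beta 3 chain, with medians of 39.98 and 14.4 CPM (1.41 ± 0.24), and Atp6v0d2, a proton pump subunit, with 33.6 and 13.7 CPM (1.32 ± 0.21). Among 6 NADPH oxidase genes 4 were higher, by at most 0.23, and 2 with date and 1 with lane.

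The remaining lists are given by their counts, beside 22.7% of all genes called in each direction. None of 22 interferon response genes was higher and 2 were lower, Ifih1 (-0.26 ± 0.08) and Oas1a (-0.51 ± 0.13, with 62.5% of its 50-base words shared and its count uncertain). Both calls were lost with date, with lane, with the azurophil score and among female libraries alone, and that of Ifih1 also with 48 against 48 cultures and among male libraries alone. Of 20 cholesterol biosynthesis genes 6 were lower and 1 higher, and none was called with date or lane as covariate. Of 22 DNA replication genes 12 were lower and none higher, with a median of -0.15 and the largest step in Pola1, a DNA polymerase subunit (-0.32 ± 0.07). Again none was called with date or lane. Of 22 mitosis genes 4 were lower and 2 higher, and Mki67, the proliferation antigen, did not pass (-0.08). With date or lane no mitosis gene was called lower and 1 higher. In 12 heme and iron genes 6 were lower (3 with date, 2 with lane) and 1 higher, among them the iron exporter gene Slc40a1 with medians of 103 and 135 CPM (-0.45 ± 0.10, lost with date). Of 24 lysosome and lipid handling genes 4 were higher and 8 lower, and with date or lane 4 and 2 were lower. The same counts were 5 and 1 of 15 for LXR targets, of which 2 were higher with date and 1 with lane, and 4 and 2 of 18 for inflammatory genes. With date 2 inflammatory genes were called higher and 1 lower, and with lane 4 were higher and 0 lower. Counts of higher and lower genes were 4 and 0 of 16 for immediate early genes and 4 and 1 of 11 for heat shock. They were 3 and 4 of 18 for nucleolar ribosome assembly and 2 and 4 of 20 for endoplasmic reticulum folding. From immediate early genes on, at most 2 genes of any list were called in either direction with date or lane.

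Markers of other marrow cell types were measured in the same libraries, and their part in the differences was not tested. Counts of these markers are to be read beside 22.7% of all genes called in each direction. Only members that passed the filter on low counts were tested. These were 6 of 12 mast cell and basophil, 7 of 10 eosinophil, 8 of 10 megakaryocyte, 10 of 12 stromal and 7 of 11 B cell genes. A scarce gene can pass this filter through the group where it is high, so the counts and list medians may lean towards that group. Mast cell and basophil genes summed to 5.13 to 19.3 CPM in rich (median 9.55) and 1.73 to 9.03 CPM in poor cultures (median 4.47), with 5 of 6 higher and a median log2 difference of 1.4. The basophil protease gene Mcpt8 had medians of 0.333 and 0.0537 CPM (2.65 ± 0.27) and 24 rich libraries above the poor range. The mast cell proteases Tpsb2, Cma1 and Mcpt4 were at 0 in all 72 libraries. Of 7 eosinophil genes 4 were higher (2 with date or lane) and 1 lower. Of 8 megakaryocyte genes 6 were higher and none lower with a median of 1.55, such as the platelet integrin gene Itga2b at medians of 1.46 and 0.370 CPM (1.73 ± 0.24), whereas Pf4, also made by macrophages, did not pass (0.18 ± 0.09). Summed megakaryocyte markers, of which Vwf and Pf4 made up most, had medians of 155 and 154 CPM. Stromal genes were higher in 7 of 10 and lower in 1 with a median difference of 1.23. Col1a1, a collagen I chain, had medians of 1.86 and 0.278 CPM (2.27 ± 0.48), and the summed ranges were 10.2 to 76.8 CPM in rich and 7.80 to 47 CPM in poor cultures. The call of Col1a1 was lost with date and among male libraries alone. With date as covariate 1 gene of the list was called, and with lane 6 were, all higher. Among female libraries alone 3 were higher, and among male ones 1. B cell genes were higher in 5 of 7 (3 with date, 2 with lane) and lower in 1, with a median of 1.38. Summed B cell markers were nevertheless not higher in rich cultures. They ranged from 52.4 to 110 CPM (median 72.8) in rich and from 46.7 to 118 CPM (median 84.4) in poor cultures. Of 13 dendritic cell genes 5 were higher (2 with date or lane) and 1 lower, of 7 T and NK cell genes 1 was higher, and of 4 tested erythroid genes 2 were higher, with the summed erythroid markers at most 1.27 CPM in the rich cultures.

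The 74 cultures in between, which entered neither group, gave a comparison in other libraries, by the slope of each gene on the score with plate as covariate. Over a score range of 1.07, 97 of 12812 genes (0.757%) had a positive and 28 (0.219%) a negative slope past the threshold, 0.976% in all. Of the 97 genes, 92 had the same sign in the 36 against 36 comparison and 89 were also called higher in rich cultures, beside 61.6% with the same sign over the 12753 genes tested in both and 22.7% of all genes called higher. Of the 28, all had the same sign and 21 were called lower, and none of either was called in the opposite direction. Among the 500 genes called more than 2-fold higher in rich cultures and tested here, 445 had a positive slope, to be read against the same 61.6%, and 52 passed. Leaving out 1 plate brought the positive count down to 62 without plate 3, 57 without plate 7 and 44 without plate 10, and the negative count to 17 without plate 7, 14 without plate 8 and 4 without plate 10.

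Among the lists, monocyte genes held the most slopes past the threshold, and most of the 97 genes were on none of the lists. Of the 14 monocyte genes 7 passed, among them Vcan with 1.83 ± 0.24 on the log2 scale per unit of score (adjusted p = 2.37e-07, edgeR), Ly6c2 with 1.22 ± 0.14, and Ccr2, Plac8, Ifitm6 and Fn1. Of the 14 early granule genes 4 passed, Ms4a3 with 1.26 ± 0.18, Fcnb, Nkg7 and Cst7, and of the late granule genes Hp with 1.31 ± 0.17 and Lcn2 with 0.87. Myb was the progenitor gene that passed (0.69, adjusted p = 0.0042, edgeR). Among genes chosen here after their values were seen, Nrg1, the growth factor neuregulin 1, had a slope of 1.78 ± 0.24 and medians of 1.72, 1.04 and 0.317 CPM from rich through intermediate to poor cultures, and Stfa3, a stefin of neutrophils, a slope of 3.33 ± 0.70 at medians of 0.361, 0.106 and 0.0362 CPM. The negative slopes included the tetraspanin Cd63, a marker of late endosomes, with medians of 127, 148 and 161 CPM (-0.26 ± 0.06), Gdf15, a stress-responsive cytokine, with 11.6, 15.7 and 20.02 CPM (-0.98 ± 0.24; its call between rich and poor was lost with date, with lane and among female libraries alone), and, of the macrophage identity list, Cd68. Arg1 had a positive slope that did not pass (1.21 ± 0.65), and none of the MHC class II, osteoclast or growth factor receptor genes passed.

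**Figure D4:**
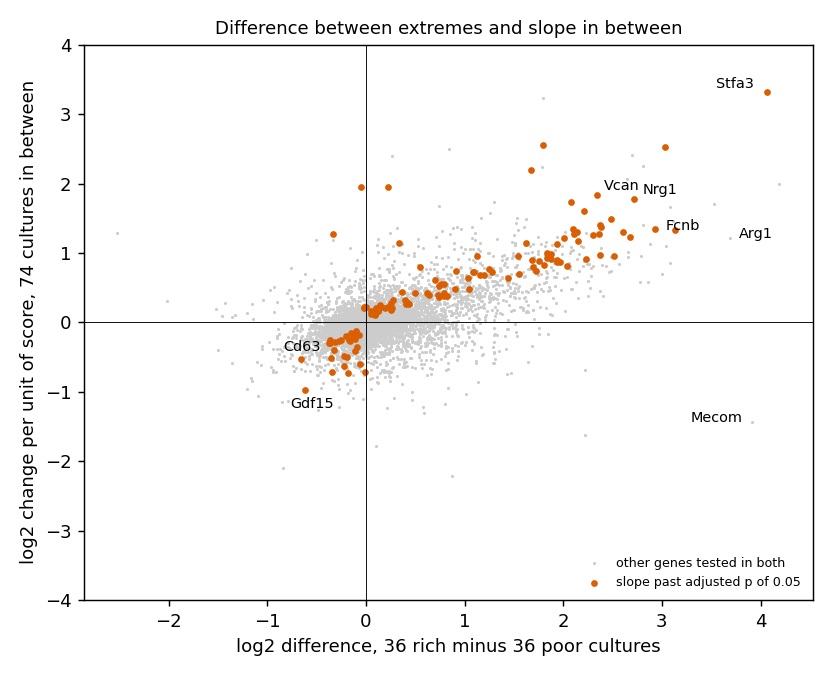
Log2 change per unit of score over the 74 cultures in between (y axis) against the log2 difference between the 36 rich and 36 poor cultures (x axis), for 12753 genes tested in both with the score genes left out. Orange points have a slope past an adjusted p of 0.05; most with a positive slope lie at the upper right, where Vcan, Nrg1, Fcnb and Stfa3 are labelled, and Mecom, at 3.91 on the x axis, has a slope below 0.

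Since the groups differed in labelled sex, the comparison was repeated within each. Among libraries labelled female, 26 rich against 15 poor without those whose expression went against the label, 1572 genes were higher in rich (11.8%) and 1262 lower (9.45%), and among those labelled male, 7 against 20, 1993 (15.2%) and 2077 (15.8%). Of the 5901 genes called over both sexes, 5895 of 5899 tested kept their direction in females and 5805 of 5859 in males. These genes were chosen by a fit that included the same libraries, so the shared direction is no separate evidence. The difference between the sexes in the rich against poor contrast was tested as an interaction and passed for 0 of 12994 genes (0.0%) with edgeR and for 0 with limma voom. At an unadjusted p under 0.05 there were 1341 genes with edgeR and 1450 with limma voom, and the smallest adjusted p with edgeR was 0.252. The edgeR share was 10.3%, above the share that this limit would give with no difference at all. Only 8 rich libraries in this fit were labelled male. The lack of calls therefore does not show that the contrast was equal in the sexes. With labelled sex added as a covariate, 5484 of the 5901 genes were called in the same direction, with differences of 2.74 for Hp, 2.30 for Ms4a3, 2.06 for Ly6c2 and -0.49 for Mertk.

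**Figure D5:**
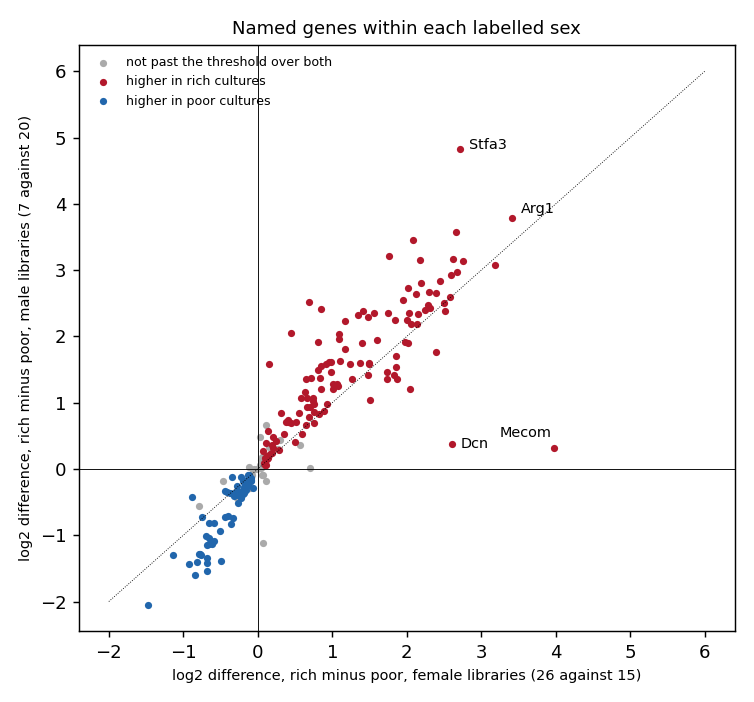
Log2 difference, rich minus poor, of 210 named genes among female libraries (x axis, 26 against 15) and among male libraries (y axis, 7 against 20), coloured by the call over both sexes, with a dotted line of equal values. All 183 called genes, which were chosen by a fit that included these libraries, have the same sign in both. Mecom and Dcn, at 3.97 and 2.60 in females, lie far below the line at 0.32 and 0.37 in males.

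The ends of the ranking showed how far single cultures can lie apart under 1 protocol. Male cultures 36 and 35, on the same plate 4, scored 2.63 and -2.05: Elane stood at 141 and 6.14 CPM, S100a8 at 248 and 24.7 CPM, Ms4a3 at 38.3 and 0.975 CPM, Hp at 88.4 and 2.82 CPM and Ly6c2 at 165 and 13.4 CPM. Female culture 21 on plate 1, with the third highest score of 2.14, had the highest Mpo of all at 785 CPM. The lowest culture, male 42 on plate 7, still held 43.7 CPM of Mpo and 4.67 CPM of Elane.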

How the data were processed

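RNA of 146 mouse bone marrow-derived macrophage libraries was analysed from raw counts per gene that the authors deposited. Per the submitters' processing notes, FastQC, TopHat2 2.0.11, HTSeq 0.6.1 and DESeq2 were used on GRCm38; their settings and the use of strand are not given in the sources used here. Variance-stabilised values on a log2 scale, also deposited by the authors for 10893 genes, served as an alternative. Of 22721 gene IDs, 21899 matched GENCODE M21; the other 822 held 0.160% of counts.

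The score used log2(CPM + 1) of the raw counts. The 36 highest and 36 lowest libraries were compared with edgeR 4.0.16 in R 4.3.3 (quasi-likelihood test, TMM, filterByExpr, plate as covariate), and the 74 others by the slope on the score. P-values were adjusted over all 13000 genes tested (Benjamini-Hochberg, threshold 0.05), and the 6 score genes were left out of counts. Limma 3.58.1 (voom), DESeq2 1.42.0, other covariates, group sizes, scores and left-out plates were alternatives. The code was tested on simulated data.

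Named genes were the 20 largest called differences in each direction at a mean log2 CPM of at least 1, without Gm- and Rik-type symbols, and up to 4 members of each list by p; others were named after their values were seen, and some genes that the rule names are not reported here. The compared cultures and the gene lists were chosen with earlier results of these data known. Genes with 20% or more of their 50-base words in another gene are called uncertain. Totals ranged from 14483441 to 120926429 counts per library.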

Additional observations from a re-analysis of the deposited data

How the results depend on the processing

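The counts of differing genes depended most on the covariates. The number higher in rich cultures was 1254 with date of collection as covariate, without plate, 1038 with lane within plate and 1572 in female libraries alone, and the number lower was 1087, 777 and 1262. For the slopes in between, the positive count was 62 without plate 3, 57 without plate 7 and 44 without plate 10, and the negative count 17 without plate 7, 14 without plate 8 and 4 without plate 10. The share of score variance between dates no longer passed with the azurophil score (30.9%, p = 0.227, permutation test), without plate 8 (38.9%, p = 0.0741) or without plate 10 (35.5%, p = 0.0657). The cause was not tested; fits with date or lane have 45 and 47 residual degrees of freedom in place of 64. No called difference among the 210 named genes reversed under the alternatives run, and 63 lost their call with date, 67 with lane, 50 in female and 32 in male libraries alone, 5 with limma voom and 1 with DESeq2. The alternatives share libraries with the fit that called these genes, so the kept direction is no separate evidence. Of the genes described as not passing, Mki67 was called in 3 alternatives, Pf4, Cd177 and H2-Eb1 in 2 each and Cx3cr1 in 1. No paired analysis was possible because no replicate number in the labels pairs a rich with a poor library; date and lane were used as blocks in the fits above.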

Other observations

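Several genes not described above also differed between rich and poor cultures (edgeR, plate as covariate). Mmp9, the gelatinase of tertiary neutrophil granules, was at 3.80, 13.1 and 50.4 CPM (lowest, median, highest) in rich and at 1.32, 5.59 and 11.3 CPM in poor cultures (log2 difference 1.46 ± 0.16), and 34 of 36 rich libraries lay above the poor median. Trem3, a receptor gene of the early granule list, had medians of 12.0 and 6.12 CPM (1.03 ± 0.09). Among progenitor genes, the transcription factor gene Erg had medians of 0.712 and 0.248 CPM (1.64 ± 0.18), and Gata2, a factor of stem cells, mast cells and basophils, of 1.26 and 0.450 CPM (1.33 ± 0.19). F13a1, the coagulation factor XIII A chain made by monocytes, was abundant in both, with medians of 1977 and 893 CPM (0.97 ± 0.15). Siglecf, a receptor of eosinophils, had medians of 2.33 and 1.36 CPM (0.79 ± 0.13). The chemokine receptor gene Ccr3, of the same eosinophil list, went the other way and was lower in rich cultures (-0.66). The call of Ccr3 was lost with 24 against 24 cultures, with the S100 score and among female libraries alone.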
